A study of Mus musculus with 12 samples.

Results

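The 2'-5'-oligoadenylate synthetase (OAS) family was followed through bulk RNA sequencing of M2-like bone marrow-derived macrophages (BMDM). Its 8 members, Oas1a, Oas1b, Oas1c, Oas1g, Oas2, Oas3, Oasl1 and Oasl2, were taken by symbol from the 56748 genes listed, and all 8 passed the filter on low counts that left 15033 genes to test. Marrow cells of female C57BL/6J mice were differentiated with 20 ng/mL M-CSF, polarised with 10 ng/mL IL4 for 48 h and then cultured for 72 h under 4 conditions, with 3 libraries each. Untreated control BMDM received no supernatant and no interferon. The eGFP supernatant group received supernatant from YUMM5.2 eGFP control cells, a mouse melanoma line that carries a doxycycline (Dox)-inducible construct without Ifnb1. The Ifnb1eGFP supernatant group received supernatant from YUMM5.2 Ifnb1eGFP cells, which secrete IFNβ under Dox, diluted to 1500 pg/mL IFNβ, and the eGFP supernatant was diluted by the same ratio. Both melanoma lines had been kept in 1 μg/mL Dox, and any Dox carried over would reach the supernatant groups alone. The rIFNβ group received 1500 pg/mL recombinant IFNβ in place of supernatant. Both lines are sorted, transduced cells, and the concentrations are nominal at the start of culture.

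OAS enzymes are activated by double-stranded RNA and join ATP into short 2'-5'-linked oligoadenylates (2-5A). The 2-5A is a second messenger that leads to cleavage of viral and cellular RNA and slows protein synthesis. In macrophages, as in most cells, the genes are textbook interferon-stimulated genes: type I interferon signals through a complex that holds Stat2 and Irf9, and this complex binds the interferon-stimulated response element (ISRE) in DNA. The mouse has a cluster of Oas1 copies where other mammals have few. Oas1a and Oas1g make 2-5A, whereas Oas1b and Oas1c are not known to, and most laboratory strains, C57BL/6 among them, carry a shortened Oas1b. Oas2 and Oas3 hold repeated synthetase units. Oasl1 and Oasl2 end in ubiquitin-like domains, and Oasl1 makes no 2-5A and is known to hold back translation of Irf7 mRNA.

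All 8 members lie on chromosome 5 in 2 groups (GRCm39). Oas2 (120868398-120887933), Oas3 (120891163-120915729), Oas1c (120938259-120950579), Oas1g (121014205-121025676) and Oas1a (121031070-121046449) are on the minus strand and Oas1b (120950700-120962228) on the plus strand. With Oas1d, Oas1e, Oas1f and Oas1h they fill 191 kb. The starts of Oas1b and Oas1c face away from each other with 121 bases between the coordinates. Oasl2 (115034997-115050295) and Oasl1 (115061294-115075974) lie on the plus strand within 41.0 kb.

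Promoter windows of 300 bases (250 before and 50 after the annotated start, RefSeq, GRCm38.p6) were given for 6 of the 8 members, but not for Oas1b and Oas2. The ISRE core searched was GAAANNGAAA, where N is any base, on both strands. It was present in 4 of these 6 windows, against 1131 of 32851 windows (3.44%) over 27025 genes. The 120 bases before the start are shown for the 4 windows with a match, since they show how alike the arrangement is between paralogs, with each match in capitals. The stretch of Oas1a is chr5:120907526-120907645, that of Oas1g chr5:120887614-120887733, that of Oas1c chr5:120812515-120812634 and that of Oas3 chr5:120777660-120777779, all on the minus strand and written 5′ to 3′.
Oas1a: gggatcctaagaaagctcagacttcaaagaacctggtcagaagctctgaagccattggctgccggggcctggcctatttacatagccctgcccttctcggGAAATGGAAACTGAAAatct
Oas1g: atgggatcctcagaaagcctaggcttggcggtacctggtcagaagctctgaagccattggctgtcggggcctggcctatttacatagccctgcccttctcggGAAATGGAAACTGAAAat
Oas1c: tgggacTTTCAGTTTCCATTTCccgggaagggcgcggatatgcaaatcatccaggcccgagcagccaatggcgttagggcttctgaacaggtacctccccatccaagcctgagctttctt
Oas3: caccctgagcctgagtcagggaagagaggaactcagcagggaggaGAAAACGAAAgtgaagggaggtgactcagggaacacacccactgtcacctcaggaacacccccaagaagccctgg

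In Oas1a and Oas1g the capitals are 2 overlapping matches that share a GAAA block, beginning 20 and 14 bases before the start of Oas1a and 18 and 12 bases before that of Oas1g. Set 2 bases apart, the stretches of Oas1a and Oas1g were identical at 108 of 118 bases (91.5%), with a longest shared run of 56 bases. Oas1c held the same pair of overlapping matches on the opposite strand, beginning 114 and 108 bases before its start, which places them in the gap towards Oas1b. At least 2 matches were found in 74 of all windows (0.225%). Oas3 held a single match, 75 bases before its start, and Oasl1 and Oasl2 held none. The gamma-activated site, searched as TTCNNNGAA, was found once, in Oas1a 98 bases before its start, against 8.3% of all windows. A match describes letters in these windows only. Positions count from the RefSeq starts, which need not be the gene ends given above. For Oas1a the RefSeq start lies inside the gene span given above.

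**Figure D1:**
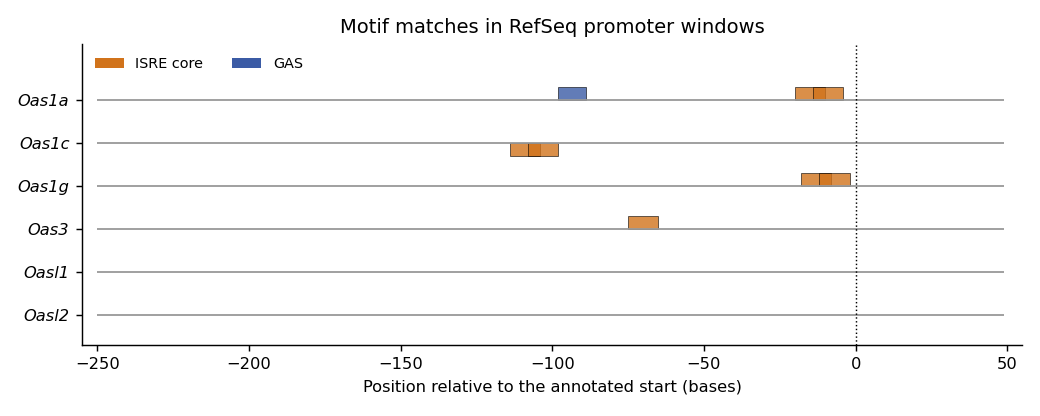
Matches to the ISRE core (orange) and the gamma-activated site (blue) in the RefSeq promoter windows of 6 members, with position in bases relative to the annotated start on the x axis (dotted line at 0); boxes above a line are matches on the gene's strand, boxes below on the opposite strand. Oas1a and Oas1g hold an overlapping pair just before the start, Oas1c holds one farther away on the opposite strand, Oas3 holds a single match, and Oasl1 and Oasl2 hold none.

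Total expected counts ran from 31526034 to 45348457 per library. The macrophage markers were high, with Adgre1 at 1484 to 1836 and Csf1r at 1023 to 1189 CPM, the count per 1000000 counts of the normalised library total. Of 4 genes of IL4 activation, Chil3, Retnla and Mrc1 were present, and Arg1, a marker widely used for this state, stayed at 0.208 to 0.877 CPM. The summed level of 7 macrophage markers was 14121 to 18457 CPM without IFNβ and 9648 to 10581 CPM with it. Lyz2, at 3441 to 12828 CPM, was the main part of this sum, which need not stand for each marker. Over all libraries Fcgr1 ranged from 48.8 to 1294, Itgam from 317 to 1627, Cd68 from 1172 to 1868 and Mertk from 102 to 178 CPM. The paper places Fcgr1 in its type I IFN-response signature. The part of these markers in the OAS values was not tested. The summed T cell markers reached at most 0.0506 CPM and the B cell markers 0.328 CPM, whereas 3 fibroblast markers summed to 26.7 to 74.4 CPM over ranges that overlapped between all groups. The sum of 5 melanocyte markers was low and overlapped, at 0.404 to 0.790 CPM without IFNβ and 0.223 to 0.810 CPM with it. The neutrophil, dendritic cell and NK cell lists were low and moved with IFNβ. The sum of 4 neutrophil markers was 4.19 to 5.72 CPM without IFNβ and 0.208 to 0.834 CPM with it, with S100a8 at 0.0890 to 5.72 CPM, while Ly6g stayed at or below 0.0758 CPM. The sum of 5 dendritic cell markers was 1.22 to 1.71 CPM without and 0.273 to 0.455 CPM with IFNβ, with Zbtb46 at 0.247 to 1.61 CPM, while Flt3 stayed at or below 0.0318 CPM. The sum of 2 NK cell markers was 0.191 to 0.577 CPM without and 0 to 0.0593 CPM with IFNβ, while Ncr1 stayed at or below 0.0297 CPM. The part of these lists in the OAS values was not tested. Ifnb1 itself had 1 count in all libraries together, in Ifnb1eGFP supernatant replicate 2. In bulk RNA, more cells that express a gene and more RNA per cell cannot be told apart.

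Replicate 2 of the eGFP supernatant stood apart from the other libraries without IFNβ. It held the highest level among the 6 libraries without IFNβ for all 8 members, which was so for 18.4% of the genes tested. Its level was 1.27 times the mean of the other 2 eGFP supernatant libraries for Oas1c, 1.49 times for Oas1b, 1.90 times for Oas1a and 2.29 times for Oas1g. The ratio was 2.56 for Oas2, 2.81 for Oasl2, 4.03 for Oasl1 and 4.07 for Oas3. Of the regulators of interferon-stimulated genes, Irf7 stood at 5.12 times, Stat2 at 2.39 times and Irf9 at 1.52 times. This library had 41958862 counts against 40282607 and 39181022 in its group, no count for Ifnb1, and macrophage markers that summed within the 17928 to 18457 CPM of its group. Each library with IFNβ still lay at least 4.29-fold above it for Oas1a and at least 40.2-fold above it for Oasl1. The log2 fold changes of the members that rest on this library are given with and without it, and those of the pathway genes where it moves them most.

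The first question was which members respond to supernatant that carries tumour-derived IFNβ, with eGFP supernatant as control. All 8 members rose (edgeR quasi-likelihood test, adjusted p at most 0.05), where 30.1% of all genes tested rose and 25% fell. All 8 also passed the stricter pair of thresholds that the study applied, a log2 fold change of 2 or more in size with an adjusted p no higher than 0.01, as did 2.77% of the genes in this direction. No member's groups overlapped, against 32.4% of genes in this direction. The median log2 fold change was 3.26 over the 8 members and 0.03 over all 15033 genes, and 3.85 and 0.03 without eGFP supernatant replicate 2.

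The second question was which members respond to the recombinant protein, with untreated BMDM as control. Again all 8 members rose, where 30.7% of genes rose and 24.6% fell. All 8 passed the study's thresholds, as did 2.99% of genes, and the groups of all 8 did not overlap, against 36.4% of genes. The median log2 fold change was 3.90 over the members and 0.04 over all genes.

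**Figure D2:**
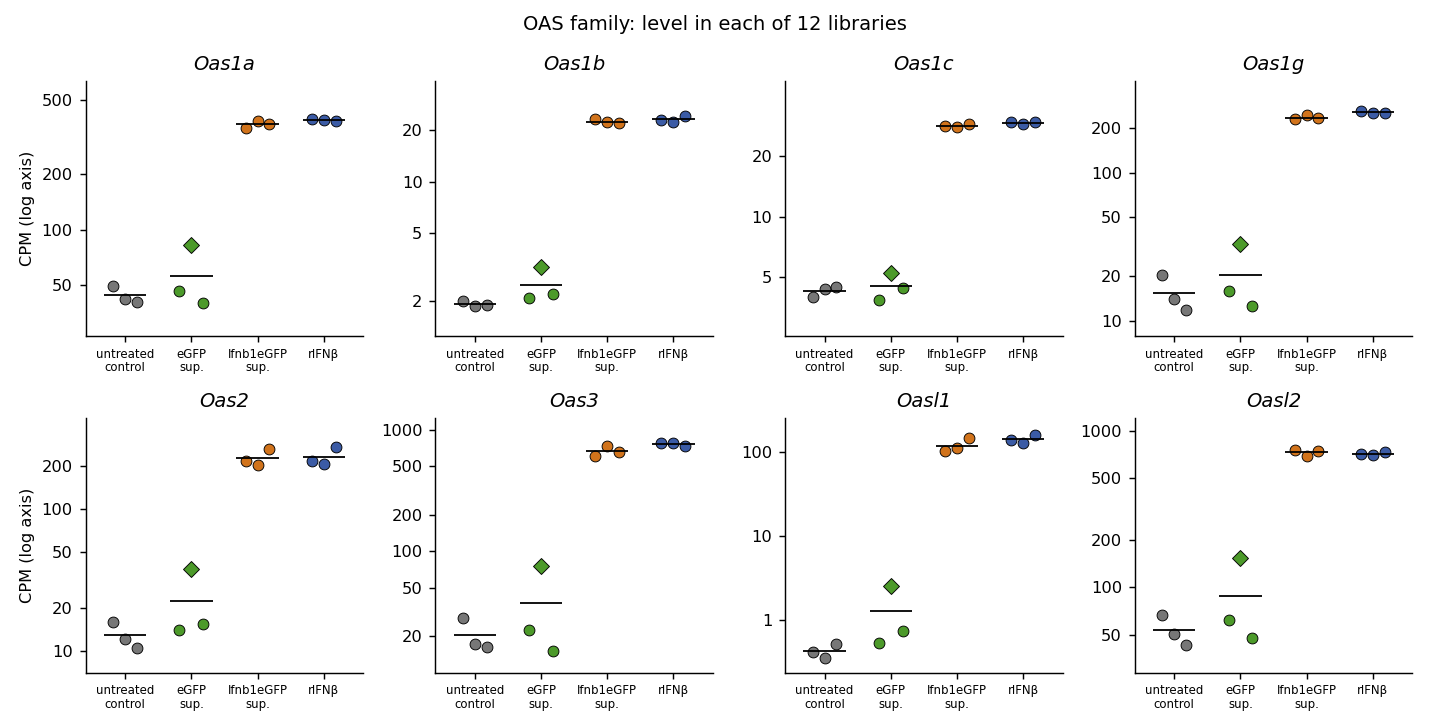
CPM of each OAS member in every library on a log axis, by condition; each point is 1 library, the bar is the mean of 3, the diamond is eGFP supernatant replicate 2 and "sup." stands for supernatant. The 6 libraries with IFNβ lie above all 6 libraries without it in every panel, and the diamond is the highest of the libraries without IFNβ in every panel.

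Among the Oas1 copies, Oas1a, a 2-5A synthetase, stood at 49.9, 42.1 and 40.5 CPM in untreated control replicates 1, 2 and 3 and at 46.7, 82.2 and 40.1 CPM with eGFP supernatant. It stood at 352, 386 and 371 CPM with Ifnb1eGFP supernatant and at 395, 389 and 385 CPM with rIFNβ. The 2 groups with IFNβ were close to each other and far above both controls. The log2 fold change was 2.71 ± 0.22 (SE, adjusted p = 8.87e-07 by edgeR) for Ifnb1eGFP against eGFP supernatant and 3.14 ± 0.22 (adjusted p = 2.84e-07) for rIFNβ against untreated control.

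Oas1g, the other active Oas1 enzyme, rose by more. It stood at 20.3, 14.0 and 11.9 CPM in untreated BMDM and at 16.0, 32.9 and 12.7 CPM with eGFP supernatant. With Ifnb1eGFP supernatant it reached 228, 244 and 231 CPM and with rIFNβ 258, 251 and 254 CPM. The log2 fold changes were 3.51 ± 0.30 (adjusted p = 1.78e-06 by edgeR) and 4.05 ± 0.31 (adjusted p = 6.38e-07). The IFNβ groups did not overlap with each other, with rIFNβ the higher, a pattern shown by 4.58% of genes. The test between these 2 groups did not call Oas1g (adjusted p = 0.896 by edgeR).

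Oas1a and Oas1g are the least separable members. Of the stretches of 75 bases in the canonical Oas1a transcript, 46.9% also occur in a transcript of Oas1g, and 44.6% the other way round. Their expected counts were not whole in 11 and 12 of the 12 libraries, which shows that reads were divided between genes. When all 8 Oas1 copies were summed per library, the log2 fold change was 2.96 (adjusted p = 6.77e-07 by edgeR) against eGFP supernatant and 3.41 (adjusted p = 2.29e-07) against untreated control. The rise therefore stands without any division of reads among the copies, while the separate values of Oas1a and Oas1g depend on it.

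The Oas1 copies not known to make 2-5A had the smallest errors in the family. Oas1b stood at 2.00, 1.87 and 1.89 CPM in untreated BMDM, at 2.07, 3.17 and 2.18 CPM with eGFP supernatant, at 23.3, 22.3 and 22.0 CPM with Ifnb1eGFP supernatant and at 23.0, 22.5 and 24.3 CPM with rIFNβ. Its log2 fold changes were 3.18 ± 0.12 (adjusted p = 2.97e-09 by edgeR) and 3.60 ± 0.13 (adjusted p = 1.52e-09). Unlike Oas1a and Oas1g, Oas1b shared no stretch of 75 bases with another Oas gene, although its count was not whole in 6 libraries.

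Oas1c stood at 3.97, 4.39 and 4.47 CPM in untreated BMDM, at 3.84, 5.26 and 4.42 CPM with eGFP supernatant, at 28.1, 27.7 and 28.6 CPM with Ifnb1eGFP supernatant and at 29.3, 28.7 and 29.4 CPM with rIFNβ. It had the smallest log2 fold changes of the members, 2.64 ± 0.09 (adjusted p = 1.58e-09 by edgeR) and 2.76 ± 0.09 (adjusted p = 1.07e-09). Its IFNβ groups did not overlap, with rIFNβ slightly higher, as for 4.58% of genes, and the test between them did not call it (adjusted p = 0.843 by edgeR). Per length, Oas1c and Oas1b, whose starts face away from each other, stood at 1.78 and 0.965 CPM per kb in untreated BMDM and at 12.1 and 11.7 CPM per kb with rIFNβ.

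Of the larger synthetases, Oas2 stood at 16.0, 12.2 and 10.6 CPM in untreated BMDM and at 14.1, 38.0 and 15.5 CPM with eGFP supernatant. It reached 219, 204 and 267 CPM with Ifnb1eGFP supernatant and 219, 208 and 274 CPM with rIFNβ. Replicate 3 was the highest in both IFNβ groups. The log2 fold changes were 3.35 ± 0.33 (adjusted p = 5.84e-06 by edgeR) and 4.18 ± 0.35 (adjusted p = 1.33e-06).

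Oas3, the largest of the synthetases, stood at 28.4, 17.3 and 16.2 CPM in untreated BMDM and at 22.3, 75.9 and 15.0 CPM with eGFP supernatant. It reached 601, 738 and 653 CPM with Ifnb1eGFP supernatant and 782, 778 and 736 CPM with rIFNβ. Among the members that make 2-5A it rose most. The log2 fold changes were 4.14 ± 0.51 (adjusted p = 3.29e-05 by edgeR) and 5.22 ± 0.54 (adjusted p = 7.50e-06), with the widest errors in the family.

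Of the mean levels per kb of annotated exons in untreated BMDM, the OAS-like genes Oasl2 and Oasl1 had the highest and the lowest. Oasl1, which makes no 2-5A, was barely present in untreated BMDM at 0.413, 0.351 and 0.520 CPM, and stood at 0.531, 2.53 and 0.728 CPM with eGFP supernatant. With Ifnb1eGFP supernatant it reached 102, 111 and 146 CPM and with rIFNβ 140, 129 and 161 CPM. Its log2 fold changes, 6.55 ± 0.35 (adjusted p = 3.93e-08 by edgeR) and 8.35 ± 0.41 (adjusted p = 1.69e-08), were the largest of the 8 members.

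Oasl2 was already high without IFNβ, at 66.5, 50.5 and 42.9 CPM in untreated BMDM and at 62.2, 155 and 47.7 CPM with eGFP supernatant. It reached 759, 695 and 747 CPM with Ifnb1eGFP supernatant and 716, 701 and 729 CPM with rIFNβ. The log2 fold changes were 3.06 ± 0.36 (adjusted p = 2.36e-05 by edgeR) and 3.75 ± 0.37 (adjusted p = 5.52e-06). It was the only member with a higher mean under Ifnb1eGFP supernatant than under rIFNβ, and the 2 groups overlapped.

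**Figure D3:**
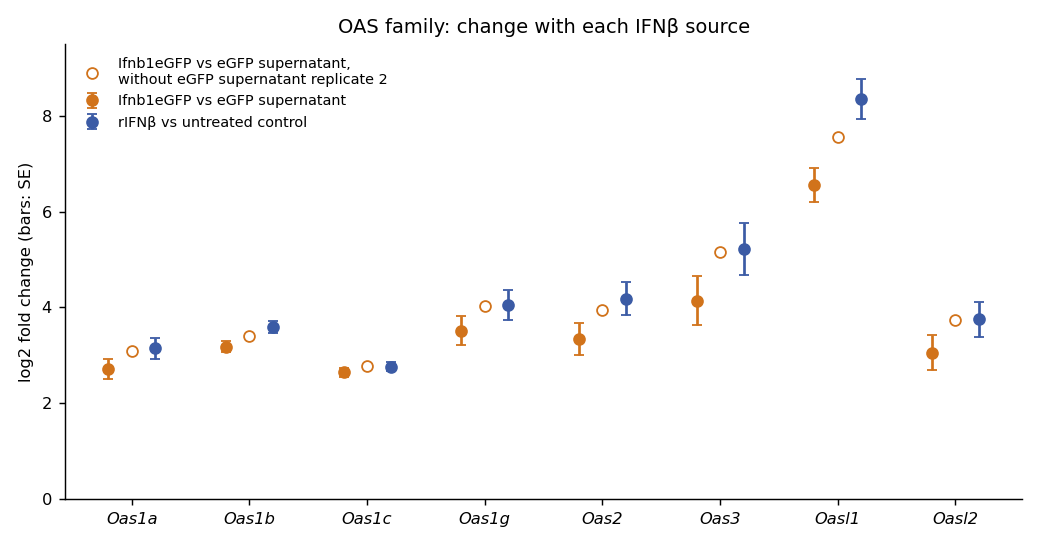
Log2 fold change of each member with its SE for Ifnb1eGFP against eGFP supernatant (orange) and rIFNβ against untreated control (blue), with open circles for the former without eGFP supernatant replicate 2. Without that library the open circles move towards the blue points, most for Oas3 and Oasl1.

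Without eGFP supernatant replicate 2 the response to Ifnb1eGFP supernatant became larger for every member, and all 8 still rose. The fold change of Oas3 went from 17.6 to 35.6 and that of Oasl1 from 93.6 to 189. It went from 8.32 to 13.3 for Oasl2 and from 10.2 to 15.5 for Oas2. The folds of the Oas1 copies moved by at most 1.43 times, the most for Oas1g. Oasl1 had the largest fold and Oas3 the next with and without this library, whereas Oasl2 lay below Oas1b with it and above Oas1b without it.

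The third comparison set Ifnb1eGFP supernatant against rIFNβ, nominally at the same concentration. No member passed an adjusted p of 0.05 by edgeR, where 0.16% of genes did, and none did with DESeq2. None of the 8 had an unadjusted p under 0.05, where 8.57% of genes did. Log2 differences were below 0 for 7 of the 8 members, with a median of -0.06 against 0.00 over all genes. The 95% interval ran from -0.23 to 0.13 for Oas1c and from -0.28 to 0.18 for Oas1b, and from -1.19 to 0.78 for Oas3, so that a difference of more than 2-fold cannot be set aside for Oas3 in the direction of rIFNβ. Oas1c and Oas1g were lower in all 3 libraries with Ifnb1eGFP supernatant than in all 3 with rIFNβ, a pattern shown by 4.58% of genes.

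The next comparison asked whether supernatant of melanoma cells without the Ifnb1 construct moves the family. No member passed an adjusted p of 0.05 between eGFP supernatant and untreated control by edgeR, where 0.299% of genes did, or by DESeq2. Oas1b, Oas2 and Oasl1 had an unadjusted p under 0.05, as did 8% of genes, with an adjusted p of 0.521, 0.567 and 0.533 by edgeR. The log2 differences of all 8 were above 0, with a median of 0.58 against 0.00 over all genes. Without eGFP supernatant replicate 2 they were -0.02 for Oas1a, -0.05 for Oas1c, -0.09 for Oas1g, -0.14 for Oas3, 0.05 for Oasl2, 0.15 for Oas1b, 0.20 for Oas2 and 0.53 for Oasl1. Oas1b and Oasl1 were higher in all 3 eGFP supernatant libraries than in all 3 untreated ones, which was so for 7.96% of genes.

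The last comparison tested whether the response differed between the 2 sources of IFNβ, each against its own control. The difference of the log2 fold changes, supernatant minus recombinant, was below 0 for all 8 members, from -0.12 for Oas1c to -1.81 for Oasl1. No member passed an adjusted p of 0.05 by edgeR, and neither did any other gene (0%), and no member did so by DESeq2. Oas1b and Oasl1 had an unadjusted p under 0.05, as did 4.4% of genes, with an adjusted p of 0.926 for both by edgeR. Without eGFP supernatant replicate 2 the difference was -0.79 for Oasl1, -0.23 for Oas2 and -0.19 for Oas1b, and between -0.07 and 0.01 for the other 5 members. A difference in response between the sources was thus not shown for any member.

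Levels can be compared between members only per length, here as CPM per kb of the union of annotated exons. For Oas1a this length was 7989 bases, against 5037 for its longest transcript and 1911 for its canonical transcript. The place of Oas1a in the orders below therefore depends on the length chosen, and levels per canonical transcript were not computed. In untreated BMDM the order was Oasl2 at 8.36 ± 1.89 (SD, n = 3), Oas1g at 6.40 ± 1.82, Oas1a at 5.53 ± 0.63, Oas3 at 2.91 ± 0.95, Oas2 at 2.89 ± 0.63, Oas1c at 1.78 ± 0.11, Oas1b at 0.965 ± 0.035 and Oasl1 at 0.164 ± 0.033. The ranges of Oasl2, Oas1g and Oas1a overlapped from each to the next, as did those of Oas3 and Oas2, and the other neighbours did not overlap. With eGFP supernatant the order of the 8 means was the same.

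With rIFNβ the order changed to Oasl2 at 112 ± 2.24, Oas3 at 108 ± 3.58, Oas1g at 106 ± 1.49, Oasl1 at 54.9 ± 6.11, Oas2 at 52.4 ± 7.93, Oas1a at 48.8 ± 0.67, Oas1c at 12.1 ± 0.16 and Oas1b at 11.7 ± 0.48 CPM per kb. Neighbours within the first 3, within the next 3 and within the last pair overlapped, so by this length the family fell into 3 tiers. With Ifnb1eGFP supernatant each tier held the same members, but Oasl2 at 115 ± 5.32 was clear of Oas1g at 97.4 ± 3.47 and Oas3 at 93.9 ± 9.75. With the length of the longest transcript in place of the exon union, Oasl2 reached 229 ± 4.58, Oas3 162 ± 5.37, Oas1g 129 ± 1.82 and Oas1a 77.4 ± 1.06 under rIFNβ, so Oas1a then stood above Oasl1 and Oas2, and the first 4 no longer overlapped.

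The summed level of the family was 24.4 to 35.5 CPM per kb in untreated BMDM and 31.4, 72.2 and 26.6 CPM per kb with eGFP supernatant. It reached 454 to 491 CPM per kb with Ifnb1eGFP supernatant and 492 to 519 CPM per kb with rIFNβ. Within this sum the share of Oas3 was 9.90% ± 1.21 in untreated BMDM, 19.9% ± 1.89 with Ifnb1eGFP supernatant and 21.4% ± 1.21 with rIFNβ. The share of Oasl1 was 0.586% ± 0.201, 9.65% ± 1.54 and 10.8% ± 0.92 in the same order. Oas1a made up 19.3% ± 1.60, 9.79% ± 0.37 and 9.65% ± 0.33, and Oasl2 28.7% ± 1.01, 24.4% ± 1.65 and 22.2% ± 0.15. Oas1g and Oas2 kept near shares, with Oas1g at 21.8% ± 1.76, 20.6% ± 0.93 and 20.9% ± 0.53. These shares depend on the lengths used, and the exon union of Oas1a is far longer than its canonical transcript, which lowers its share.

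**Figure D4:**
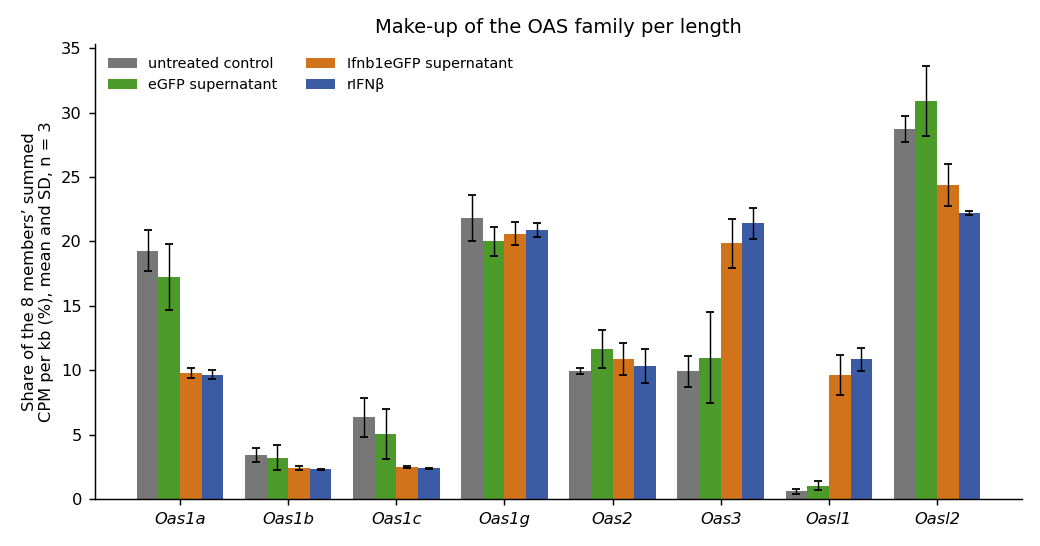
Share of each member in the family's summed CPM per kb, in percent, as mean and SD of 3 libraries per condition. The shares of Oas3 and Oasl1 are larger and those of Oas1a and Oas1c smaller in both groups with IFNβ.

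The other genes of the pathway came from a list of 20, of which 17 passed the filter on low counts. In each of the responses to Ifnb1eGFP supernatant and to rIFNβ 14 of the 17 rose and 3 fell, against the background shares given above. The study's thresholds for a rise were passed by 7 and 8 of them. Oas1h counts among the 14 and among the 7 and 8, although it passed the filter only through its libraries with IFNβ. The median log2 fold change over the 17 was 1.76 and 1.95, and the former was 1.93 without eGFP supernatant replicate 2. None passed an adjusted p of 0.05 in the other 3 comparisons.

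The 3 genes that fell were Enpp1, Abce1 and Pde12. Enpp1, a phosphodiesterase that can degrade 2-5A and cyclic GMP-AMP, stood at 11.0 to 14.1 CPM in untreated BMDM, 13.8 to 17.0 CPM with eGFP supernatant, 7.10 to 8.67 CPM with Ifnb1eGFP supernatant and 6.29 to 7.60 CPM with rIFNβ. Its log2 fold changes were -0.97 ± 0.12 (adjusted p = 4.15e-05 by edgeR) and -0.85 ± 0.13 (adjusted p = 0.000142). Abce1, a ribosome recycling factor, had log2 fold changes of -0.17 (adjusted p = 0.00917) and -0.29 (adjusted p = 0.000203 by edgeR). Pde12, a 2'-phosphodiesterase that degrades 2-5A, had -0.26 (adjusted p = 0.0215) and -0.24 (adjusted p = 0.0315 by edgeR). The fall of Pde12 no longer passed the test without replicate 1 or 2 of the eGFP supernatant or replicate 3 of the Ifnb1eGFP supernatant (adjusted p = 0.0540 to 0.0927 by edgeR), nor, against untreated control, without replicate 1 or 2 of that group or replicate 1 or 3 of rIFNβ (adjusted p = 0.0716 to 0.105). The changes of Abce1 and Pde12 were small beside those of the synthetases.

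Among the regulators of interferon-stimulated genes, Irf7 moved most, from 5.25 to 11.3 CPM in untreated BMDM to 1742 to 1904 CPM with rIFNβ, a log2 fold change of 7.89 ± 0.70 (adjusted p = 2.10e-06 by edgeR). Against eGFP supernatant it rose by 6.15 ± 0.64, and by 7.40 ± 0.35 without eGFP supernatant replicate 2. Of the complex that binds the ISRE, Stat2 rose by 3.08 and 3.69 and Irf9 by 1.50 and 1.79 on the log2 scale, against eGFP supernatant and untreated control respectively. Without that library the rises against eGFP supernatant were 3.63 for Stat2 and 1.73 for Irf9. Irf1, another factor of the family, rose by 1.71 and 1.69. Irf7 and Oasl1 thus had the largest rises of their lists in both responses.

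The sensors and partners of double-stranded RNA and DNA on the list all rose, Rigi, Ifih1, Dhx58, Tlr3, Eif2ak2, Adar, Cgas, Zc3hav1 and Mavs, with the largest log2 fold changes for Rigi (3.17 and 3.78, the former 3.70 without eGFP supernatant replicate 2) and the smallest for Mavs (0.18 and 0.17). The remaining Oas1 copies were near the floor. Oas1d had at most 8.01, Oas1e at most 4.04 and Oas1f at most 1 count in a library, and none of them was tested. Oas1d lies over Oas1a on the opposite strand, and whether counting used the strand is not stated. Oas1h had 0, 0 and 1 count in untreated BMDM and 2, 1 and 2 with eGFP supernatant. It had 16, 11 and 14 counts with Ifnb1eGFP supernatant and 15, 13 and 7 with rIFNβ. It passed the test in both responses (adjusted p = 0.000738 and 0.000196 by edgeR). However, it passed the filter on low counts only through its libraries with IFNβ, so its selection and its test used the same contrast.

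**Figure D5:**
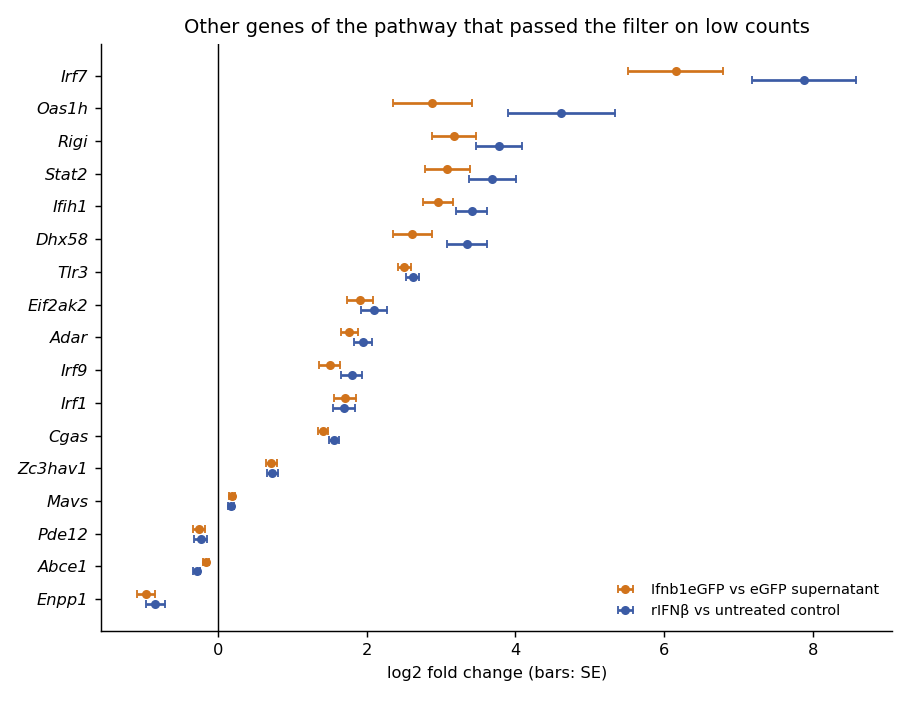
Log2 fold change with its SE of the 17 other pathway genes that passed the filter, for Ifnb1eGFP against eGFP supernatant (orange) and rIFNβ against untreated control (blue). Irf7 lies farthest to the right, Mavs lies near 0 on the positive side, and Enpp1, Abce1 and Pde12 lie below 0; the value of Oas1h rests on 0 or 1 count in each untreated library.

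The genes whose pattern was most like the family's were sought as a description. Across the 12 libraries, Zbp1, Xaf1, Fbxw17, Sp100 and Ifi35 had the highest Pearson correlations with the mean standardised log2 level of the members, each at 0.999. With the mean of each condition removed, Ifi44 and Isg15 (both 0.986), Stat2 (0.983), Ifi35 (0.982) and Mx1 (0.980) were the closest. The members themselves correlated with the family's profile after this removal at 0.67 for Oas1c, 0.88 for Oasl1 and 0.95 to 0.98 for the others. Each member is part of that profile, which raises its correlation, so these values cannot be set beside those of the genes outside the family. These 12 points share libraries and scaling factors, and eGFP supernatant replicate 2 is among them.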

How the data were processed

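RNA from 12 BMDM cultures was sequenced with a stranded total RNA kit. The authors deposited a table of unnormalised expected counts per gene, which they had estimated with RSEM (version 1.3.3), and 12.0% of the values were not whole. The reference is named as GRCm39 and mm10 together, which are different builds, and the annotation and strand setting are not given in the sources used here. The study used DESeq2 for its own comparisons.

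Expected counts were rounded, filtered with filterByExpr (15033 genes kept), scaled by TMM and tested with edgeR (4.0.16, R 4.3.3) by the quasi-likelihood test over all 12 libraries with condition as the only term, with Benjamini-Hochberg adjustment over all genes tested. SE is the log2 fold change divided by the square root of F. Alternatives were RLE factors, library totals, no filter, DESeq2 (1.42.0), a replicate block, the compared groups alone, each library left out and counts rounded down. The test was checked on simulated counts. Groups came from the sample titles. The design states 3 mice per condition, but not whether a replicate number marks the same mouse, so p-values measure the spread between these libraries.

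The members and lists were chosen with earlier results of these data known. The text names all 8 members, a pathway list of 20 and, for likeness, the 5 genes with the highest correlation on each of 2 measures (log2 CPM with a prior count of 2). Gene positions and lengths are from GENCODE on GRCm39 and promoter windows from RefSeq on GRCm38.p6, with 56017 of the 56748 genes matched to the annotation by identifier. Proteins were not compared here, and 2 genes that were first on the pathway list are not reported here.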

Additional observations from a re-analysis of the deposited data

How the results depend on the processing

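All 8 members rose in the responses to Ifnb1eGFP supernatant and to rIFNβ, and passed the study's thresholds, under every alternative run, and 0 passed an adjusted p of 0.05 in the other 3 comparisons. Of the 17 pathway genes, 15 to 17 passed in the former response and 16 or 17 in the latter, with Pde12 the gene lost when a library was left out. In the former response Mavs was also lost without the filter (adjusted p = 0.0502 by edgeR). Abce1 and Pde12 were lost there with the compared groups alone (adjusted p = 0.0527 and 0.0621 by edgeR). With the compared groups alone Oas1h was not tested in the response to rIFNβ. Of the alternative values, 820 kept direction and side, 22 levels moved by more than 1 SD, mostly with the transcript length used, and 8 differences, none of them past the threshold, turned sign when a library was left out. Over these omissions the log2 difference of Oas2 between Ifnb1eGFP supernatant and rIFNβ ranged from -0.15 to 0.10. That between eGFP supernatant and untreated control ranged from -0.025 to 0.55 for Oas1a, -0.054 to 0.17 for Oas1c, -0.092 to 0.68 for Oas1g and -0.14 to 1.26 for Oas3, with each lowest value from the omission of eGFP supernatant replicate 2. The difference of responses ranged from -0.22 to 0.0055 for Oas1c.

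With the replicate number as a block, all 8 members still rose in both responses, with Oas3 at a log2 fold change of 4.31 against eGFP supernatant. Deviations of same-numbered libraries correlated at 0.0582 to 0.252 over 18 pairs, 13 of them above 0.1. Those of libraries with different numbers correlated at -0.318 to 0.147 over 36 pairs, 1 of them above 0.1. All 12 libraries correlated best, on average, with their own number, which is a hint from the data that numbers may be shared, not a statement of the design. The depth limits Oas1d, Oas1e, Oas1f and Oas1h, and the 3 libraries per group limit the comparisons without calls.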
